A study of Homo sapiens with 6 samples.

Results

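The S100 calcium-binding proteins were examined in A2058, a human metastatic melanoma cell line, with and without vitamin C. The genes were taken by symbol: S100A1, S100A2, S100A3, S100A4, S100A6, S100A10, S100A11, S100A13, S100A16 and S100B, 10 of the 60675 gene identifiers in the deposited table. RNA-seq counts came from 3 control wells without vitamin C (labelled Control) and 3 wells given 100 µM vitamin C for 48 h (labelled VitC). This is the dose in the sample labels, while the protocol text of the same labels gives 50 µM sodium ascorbate. All wells hold one cell line, so p-values measure the spread between wells only. Where 3 values are given for a group, they stand in the order of replicates 1, 2 and 3, and SE is the standard error of a log2 fold change. Library totals ran from 16248869 to 41884588 reads counted in control wells and from 20944956 to 32549362 in vitamin C wells.

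S100 proteins are small proteins with a pair of EF-hands, the helix-loop-helix motif that holds calcium. Most form dimers, open a binding face when calcium rises and then hold a target such as an annexin, a myosin or p53, and some are also released and bind receptors on other cells. S100B is used as a tissue and serum marker of melanoma, and S100A4 is known for its link with cell motility and metastasis. The genes of the A group lie together on chromosome 1, here between 151982915 and 153632039 in GRCh38 (9 of the 10 genes), and S100B lies on chromosome 21, from 46598962 to 46605208 on the minus strand. All 10 are protein coding in GENCODE 29.

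The label of the line as a melanoma was checked against 8 melanocytic markers, all of which were detected. The melanosomal enzyme DCT stood at a mean of 1515 CPM (counts per 1e6 counts of the library, scaled by TMM) in control wells, the lineage factors MITF and SOX10 at 527 and 102 CPM, and the antigen MLANA at 1.54 CPM. With vitamin C 4 of the 8 rose (MLANA, PMEL, TYR and PAX3) and 1 fell (DCT). These calls (edgeR adjusted p under 0.05) were 62.5% of the list, against 11.2% of all genes tested. MLANA reached a mean of 15.4 CPM, PMEL went from 89.2 to 148 CPM, and DCT fell to 1234 CPM. The summed level of the 8 ran from 2345 to 2461 CPM in control and from 2158 to 2294 CPM in vitamin C wells, most of it DCT. Vitamin C replicate 3 stood apart from the other libraries of its group. Its counts differed from vitamin C replicates 1 and 2 by a chi-square of 11 and 10.7 times its degrees of freedom, a ratio that was 3.31 between replicates 1 and 2. Among control wells replicate 1 stood apart to a lesser degree. Its ratio was 6.65 with replicate 2 and 5.61 with replicate 3, against 2.75 between replicates 2 and 3. The ratio was taken on raw counts and not adjusted for library depth. Results for the S100 genes are also given without vitamin C replicate 3.

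Of the 10 S100 genes, 1 rose and 1 fell with vitamin C. S100A4 rose 1.72-fold and S100A2 fell to 0.541 of its control level, while the other 8 did not pass an adjusted p of 0.05 in edgeR's quasi-likelihood test. Over all 16353 genes with enough counts to test, 11.2% were called, 6.09% higher and 5.09% lower. All 10 S100 genes passed the filter on low counts. Their median log2 fold change was -0.072, and that of all genes tested was -0.0037. Without vitamin C replicate 3 these medians were -0.17 and -0.0048. DESeq2 called the same 2 genes, and called 10.4% of all genes. The values of 3 S100 genes did not overlap between groups (S100A4 higher, S100A2 and S100A10 lower), and 30.6% of all genes tested did not overlap, 15.6% higher and 14.9% lower. At an adjusted p under 0.01, 1 S100 gene and 4.86% of all genes were called. RNA of whole wells was counted, so fewer cells making a transcript and less transcript per cell cannot be told apart.

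**Figure D1:**
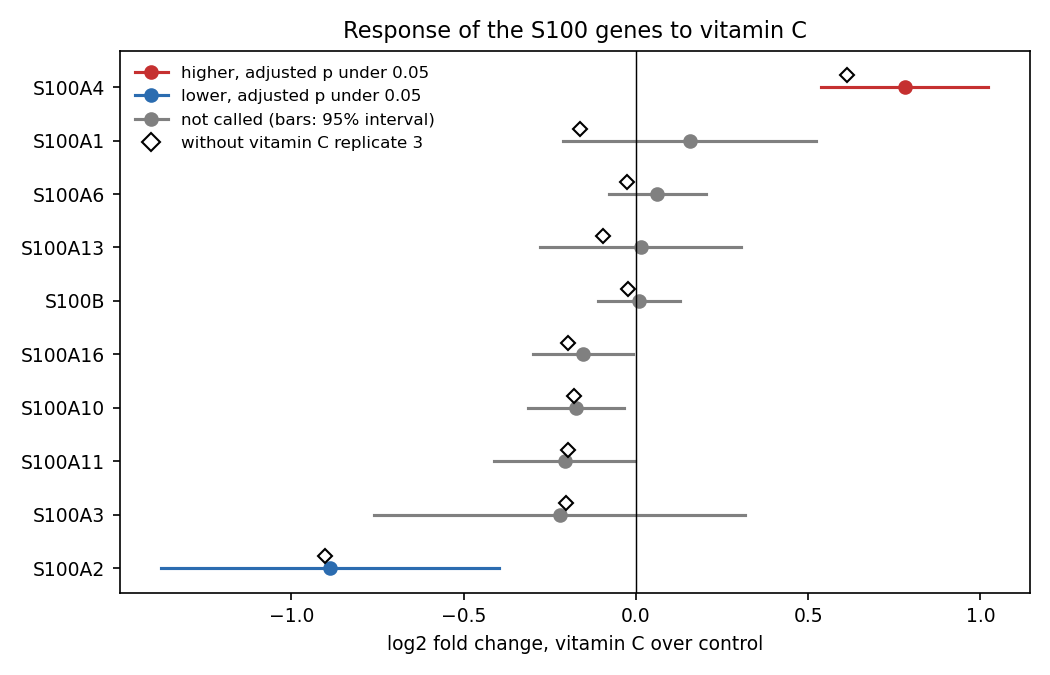
Vitamin C over control on the log2 scale (x axis) for the 10 S100 genes (y axis), with 95% confidence intervals as bars, from 3 libraries a group. S100A4 lies at 0.78 and S100A2 at -0.89, and 4 other genes move from above 0 to below 0 when vitamin C replicate 3 is left out (open diamonds).

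S100A4 was the member that rose. It binds non-muscle myosin IIA and promotes cell motility. Its level was 24.0, 22.04 and 22.1 CPM in control and 33.7, 35.9 and 48.5 CPM in vitamin C wells. Each vitamin C well was higher than each control well, and replicate 3 was the highest. The mean was 22.7 ± 1.14 CPM in control and 39.4 ± 8.02 CPM in vitamin C wells (SD, n = 3 each), a fitted fold of 1.72, or 0.78 on the log2 scale (SE 0.113; edgeR adjusted p = 0.000602, rank 244 of all genes by p). The 95% interval of the fold was 1.45 to 2.03. Without vitamin C replicate 3 the log2 fold change was 0.61 (SE 0.0705, edgeR adjusted p = 1.25e-05). On chromosome 1 the gene spans 153543613 to 153550136 (minus strand), and none of its exon bases overlap another gene (0%).

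S100A4 is also known as a transcript of fibroblasts, and some other fibroblast markers rose in the same wells. Of 8 such markers, 6 had enough counts to test and 3 rose (50% of those tested, against 6.09% of all genes). LUM went from a mean of 51.1 to 90.2 CPM, PDGFRB from 0.817 to 2.45 CPM and COL3A1 from 1.83 to 3.11 CPM. DCN was at 1.89 and 3.04 CPM, with no overlap between the groups, and did not pass the test (edgeR adjusted p = 0.0826). PDGFRA was at 5.54 and 4.95 CPM (edgeR adjusted p = 0.617). The summed level of the 8 ran from 59.0 to 67.3 CPM in control and from 98.0 to 115 CPM in vitamin C wells, most of it LUM. The type I collagen genes and THY1 had low levels. COL1A1, COL1A2 and THY1 stood at means of 0.470, 0.552 and 0.110 CPM in control and 0.452, 0.514 and 0.0391 CPM in vitamin C wells. Of 8 blood cell markers, 4 could be tested and 1 rose (25%), the proteoglycan SRGN, from a mean of 7.96 to 13.9 CPM. The adaptor LCP2 was at 0.285 and 0.669 CPM, with no overlap between the groups, and did not pass the test (edgeR adjusted p = 0.150). The pan-leukocyte marker PTPRC was at 0.854 and 0.572 CPM and CORO1A at 0.676 and 0.644 CPM. The sum of the 8 ran from 8.85 to 10.9 CPM in control and from 13.7 to 17.4 CPM in vitamin C wells. CD53, CD52, TYROBP and ITGB2 had 2, 1, 2 and 26 counts over all 6 libraries. The part of these markers in the S100A4 result was not tested.

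S100A2 fell. It is best known from keratinocytes and other epithelial cells, and it binds p53. Its counts were 103, 79 and 40 in control and 25, 58 and 31 in vitamin C wells. On the CPM scale these were 2.47, 2.94 and 2.48 against 0.978, 1.76 and 1.48, so every vitamin C well was below every control well. The mean was 2.63 ± 0.270 CPM in control and 1.41 ± 0.397 CPM in vitamin C wells (SD, n = 3 each), a fitted fold of 0.541, or -0.89 on the log2 scale (SE 0.228; edgeR adjusted p = 0.0238), with a 95% interval of the fold from 0.385 to 0.760. The call was lost without control replicate 1, 2 or 3 (edgeR adjusted p = 0.0576, 0.0972 and 0.0568) and without vitamin C replicate 1 (0.0734), while it held without vitamin C replicate 3 (0.0215). Of 8 epithelial markers 4 had enough counts to test, and 0 were called by edgeR or DESeq2 (1 had an unadjusted p under 0.05). The sum over the 8 ran from 11.9 to 12.7 CPM in control and from 14.1 to 15.5 CPM in vitamin C wells. Most of it was ESRP1, with means of 9.67 and 11.3 CPM (edgeR adjusted p = 0.135). KRT14 was at 1.31 and 1.74 CPM (edgeR adjusted p = 0.307). Both were higher with vitamin C with no overlap between the groups. So were CDH1, at 0.0701 and 0.359 CPM, and GRHL2, at 0.00800 and 0.172 CPM, which had too few counts to test. KRT15 (0.752 and 0.717 CPM) and CLDN4 (0.441 and 0.439 CPM) overlapped. EPCAM and KRT5 had 16 and 5 counts over all 6 libraries. The part of these markers in the S100A2 result was not tested.

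**Figure D2:**
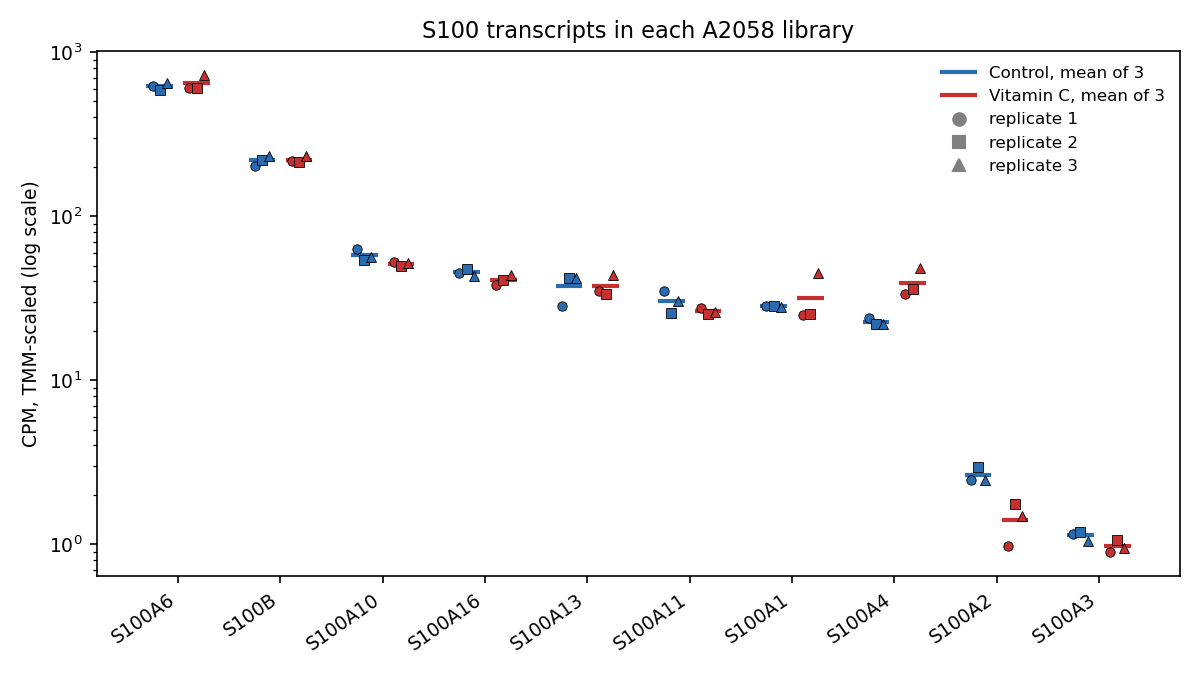
Level of each S100 transcript in CPM (y axis, log scale) in the 3 control libraries (blue) and the 3 vitamin C libraries (red), with the mean of each group as a line and the replicate number as the marker shape. S100A4 in vitamin C libraries, from 33.7 to 48.5 CPM, lies above its control libraries, from 22.04 to 24.0 CPM, and S100A1 lies at 45.2 CPM in vitamin C replicate 3 alone.

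DNA before the start sites of S100A4 and S100A2 is shown because these are the genes that changed, and that of S100A11 because it holds more CG pairs and the gene was not called. CG pairs are the sites at which TET enzymes, which need vitamin C, act on methylated cytosine. The sequences are from RefSeq (GRCh38.p14), 5′ to 3′ on the minus strand, which is the strand of all 3 genes, and CG pairs are in capitals. Each is the longest run within 250 bases of the start site that holds no annotated exon: chr1:153545886-153546056 for S100A4, chr1:153565866-153566094 for S100A2 and chr1:152037036-152037254 for S100A11.
S100A4: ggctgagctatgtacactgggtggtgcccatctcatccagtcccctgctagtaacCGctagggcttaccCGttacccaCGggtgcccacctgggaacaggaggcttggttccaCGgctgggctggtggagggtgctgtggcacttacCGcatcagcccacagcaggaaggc
S100A2: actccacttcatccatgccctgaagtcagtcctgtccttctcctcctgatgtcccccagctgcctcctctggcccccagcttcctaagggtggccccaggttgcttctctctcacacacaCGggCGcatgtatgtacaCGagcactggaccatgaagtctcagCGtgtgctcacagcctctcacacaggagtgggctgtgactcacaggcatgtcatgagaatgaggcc
S100A11: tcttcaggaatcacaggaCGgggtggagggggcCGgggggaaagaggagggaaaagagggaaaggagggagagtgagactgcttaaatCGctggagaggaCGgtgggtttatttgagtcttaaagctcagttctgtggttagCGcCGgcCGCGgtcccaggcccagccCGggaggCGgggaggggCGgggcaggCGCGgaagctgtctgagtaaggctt
These runs hold 5, 4 and 13 CG pairs. In the whole window of 250 bases, S100A4 has 7 CG pairs, S100A2 has 4 and 3 in 2 windows, and S100A11 has 15, against a median of 11 over 35116 windows of all genes. S100A6 and S100A10, neither of which was called, have 24 each, more than in 76.3% of all windows. Other genes that were not called have fewer. S100A3 has 4, S100A1 has 6, S100A16 has 1 and 6, and S100A13 has 15, 10 and 8. Low counts of CG pairs were therefore not particular to the called genes, and any part of CG pairs in the response was not tested. Of 13 windows found for 9 of the S100 genes, 2 hold the AP-1 motif TGACTCA on either strand, 1 of S100A2 and that of S100A3, and 4.2% of all windows hold it. The TATA box motif TATAAA is in the S100A4 window, in the part not printed above, and in 1 window of S100A13. Of all windows 10.72% hold it. Methylation was not measured in these files.

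S100A6 and S100B were the most abundant members, and neither was called. S100A6, or calcyclin, binds annexins and the ubiquitin ligase adaptor CACYBP. It had 621, 591 and 649 CPM in control and 607, 607 and 729 CPM in vitamin C wells. Only vitamin C replicate 3 lay above the control range. The log2 fold change was 0.063 (95% interval -0.079 to 0.20, edgeR adjusted p = 0.605), and -0.026 without that library. S100B, the melanoma marker, had 204, 220 and 233 CPM in control and 216, 213 and 232 CPM in vitamin C wells, and every vitamin C value lay within the control range. Its log2 fold change was 0.0096 (SE 0.0554, edgeR adjusted p = 0.941). The 95% interval of the S100B fold was 0.927 to 1.09, the narrowest of the 10. Its sign changed to -0.0012 with upper quartile scaling and to -0.023 without vitamin C replicate 3.

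S100A10, S100A11 and S100A16 had lower means with vitamin C but did not pass the test. S100A10, also called p11, does not bind calcium and forms a complex with annexin A2 that holds plasminogen and its activator at the cell surface. Its values were 62.6, 54.1 and 56.0 CPM in control and 52.5, 49.5 and 51.7 CPM in vitamin C wells, with no overlap between the groups. The log2 fold change was -0.17 (SE 0.0642, edgeR adjusted p = 0.103). S100A11, a partner of annexin A1, had 34.7, 25.8 and 30.3 CPM in control and 27.7, 25.4 and 26.0 CPM in vitamin C wells, and the groups overlapped. Its log2 fold change was -0.21 (SE 0.0950, edgeR adjusted p = 0.190). It passed at an edgeR adjusted p of 0.0489 without control replicate 2 (log2 fold change -0.31), while without control replicate 1 the log2 fold change was -0.081 (edgeR adjusted p = 0.667). S100A16, a widely expressed member, had 45.3, 47.8 and 43.0 CPM in control and 38.0, 41.1 and 43.7 CPM in vitamin C wells, or -0.15 on the log2 scale (SE 0.0671, edgeR adjusted p = 0.167). All 3 had an unadjusted p under 0.05, which with S100A4 and S100A2 made 5 of the 10 S100 genes, and 25.7% of all genes tested had one.

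S100A1 and S100A13 lie on opposite strands and share exon bases, and the sign of each depended on single libraries. S100A1, which acts on calcium release in heart and skeletal muscle, had 28.5, 28.3 and 27.9 CPM in control and 25.01, 25.3 and 45.2 CPM in vitamin C wells. Vitamin C replicates 1 and 2 were below all control wells, and replicate 3 was above them. The log2 fold change was 0.16 (95% interval -0.21 to 0.52, edgeR adjusted p = 0.620), and it turned to -0.16 (SE 0.0672, edgeR adjusted p = 0.130) without vitamin C replicate 3. S100A13 takes part in the release of FGF1 and IL1A, which lack a signal peptide. It had 28.3, 41.8 and 42.1 CPM in control and 35.1, 33.5 and 43.8 CPM in vitamin C wells, with control replicate 1 the lowest of all. The log2 fold change was 0.014 (95% interval -0.28 to 0.31, edgeR adjusted p = 0.966), -0.17 without control replicate 1 and -0.095 without vitamin C replicate 3.

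The shared bases are 7.8% of the exon bases of S100A1 and 10.6% of those of S100A13. In addition, 24.2% of S100A13 exon bases lie in AL162258.1, a transcript annotated on the same strand that has 0 counts in every library, and 10.6% of S100A1 exon bases lie in the antisense gene AL162258.2. That antisense gene had a mean of 0.527 CPM in control and 0.530 CPM in vitamin C wells. For the counting, the strand setting is not given in the sources at hand, and reads of S100A1, S100A13 and AL162258.2 in shared bases therefore cannot be told apart.

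S100A3, a protein of the hair cuticle, was the least abundant member in control wells, with 48, 32 and 17 counts in control and 23, 35 and 20 counts in vitamin C wells. These are 1.15, 1.19 and 1.05 CPM against 0.900, 1.06 and 0.955 CPM, and the groups overlapped. The log2 fold change was -0.22 with a 95% interval from -0.76 to 0.32 (edgeR adjusted p = 0.635). The gene lies within the span of S100A4, from 153547329 to 153549372 on the same strand, with no exon base in common.

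Vitamin C replicate 3 had the highest value of its group for 6 of the 10 S100 genes, and control replicate 1 for 4. The share of all genes tested that were highest in vitamin C replicate 3 was not taken. On the log2(CPM + 0.5) scale, the median difference of the S100 genes from the mean of the other libraries of the group was 0.13 in vitamin C replicate 3. It was -0.13 and -0.075 in vitamin C replicates 1 and 2 and between -0.040 and 0.012 in control wells. Each library is set against the others of its group, so a high library lowers the values of the others. Over all genes tested the median difference was -0.00085 in vitamin C replicate 3. It was 0.046 over the 2519 protein coding genes whose exons span no more than 3030 bases, the length of the longest S100 gene. Without this library 9 of the 10 S100 genes had a negative log2 fold change, with S100A4 the exception, and with it 5 did. Of the 9, only S100A2 was called without this library. S100A6 (-0.0255, SE 0.0428) and S100B (-0.0231, SE 0.0506) lay nearer to 0 than their SE. The median over all genes tested was -0.0048 without this library, and the share of all genes with a negative value was not taken. The part of this library's difference in the S100 values was not tested.

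**Figure D3:**
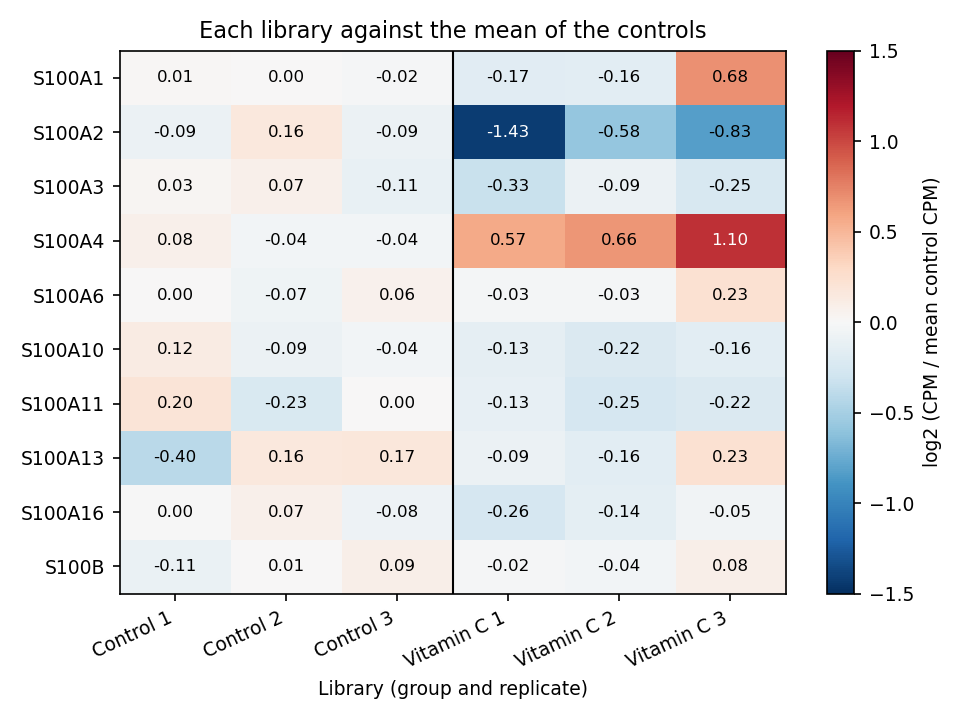
Log2 of each library's CPM over the mean control CPM for the 10 S100 genes (rows) in the 6 libraries (columns), with red for higher and blue for lower. S100A4 is red in all 3 vitamin C libraries (0.57, 0.66 and 1.10), S100A2 is blue in all 3 (-1.43, -0.58 and -0.83), and S100A1 is at 0.68 in vitamin C replicate 3 and from -0.17 to 0.013 in the other libraries.

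Levels were compared between genes as CPM per kilobase of exon, with the exon bases of all transcripts of a gene as its length. Reads in the shared bases of S100A1 and S100A13 cannot be told apart, which limits the places of both in the order. In control wells S100A6 led with a mean of 639 CPM per kilobase, followed by S100B with 151, S100A11 with 44.5, S100A10 with 37.3, S100A16 with 26.7, S100A4 with 22.2, S100A13 with 16.9, S100A1 with 9.31, S100A2 with 1.68 and S100A3 with 1.19. Of neighbours in this order, only S100A11 and S100A10 had overlapping ranges. In vitamin C wells S100A4 moved from rank 6 to rank 4 with 38.4 CPM per kilobase, between S100A11 with 38.8 and S100A10 with 33.2, and its range overlapped with both. S100A2 moved to the last place with 0.898 CPM per kilobase, below S100A3 with 1.02, and their ranges overlapped. S100A6 took 58.2% ± 1.04 of the CPM of the 10 genes in control and 59.0% ± 0.577 in vitamin C wells (SD, n = 3 wells each). The share of S100A4 was 2.14% ± 0.145 and 3.56% ± 0.370.

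The other S100 genes were near 0 in these cells. None of 11 (among them the myeloid genes S100A8, S100A9 and S100A12 and the epithelial genes S100A7, S100A14 and S100P) had enough counts to test. S100A14 had the most, with 11 counts over the 6 libraries. S100A8 had 0 counts, which allows up to 3, S100A9 had 3 and S100A12 had 4.

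S100 binding partners moved in both directions. Of 32 listed partners 28 were tested, and 4 rose, 2 fell and 22 were not called (21.4% called, against 11.2% of all genes; median log2 fold change 0.030). Both cargoes of S100A13 rose. FGF1, a growth factor, went from 3.46, 4.02 and 3.90 CPM in control to 5.71, 5.41 and 6.35 CPM in vitamin C wells, 0.62 on the log2 scale (SE 0.133, edgeR adjusted p = 0.00862). IL1A, an inflammatory cytokine, went from 0.888, 1.15 and 0.681 to 1.92, 1.70 and 2.24 CPM in the same order, 1.06 on the log2 scale (SE 0.249, edgeR adjusted p = 0.0151). Neither gene's groups overlapped. ANXA6, an annexin that binds S100A6 and S100A11, rose with a log2 fold change of 0.29 (SE 0.0511), and CAPZA2, an actin-capping subunit, with 0.16 (SE 0.0415).

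PLAT, the tissue plasminogen activator bound by the S100A10 complex, was at 167 ± 7.26 CPM in control and 120 ± 1.17 CPM in vitamin C wells (SD, n = 3 each) and so fell by 0.48 on the log2 scale (SE 0.0474, edgeR adjusted p = 2.5e-05). CACYBP, the partner of S100A6, was at 663 ± 30.3 and 584 ± 32.8 CPM (SD, n = 3 each) and fell by 0.18 on the log2 scale (SE 0.0509, edgeR adjusted p = 0.0331). Leaving out control replicate 1 left 2 called partners, and leaving out control replicate 3 left 3. In the same fits the calls over all genes fell from 1829 to 1092 and 964.

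S100A10 was set against ANXA2, the other chain of its complex, within each library. ANXA2 was 721, 669 and 669 CPM in control and 673, 714 and 778 CPM in vitamin C wells (log2 fold change 0.072, edgeR adjusted p = 0.452). The log2 ratio of S100A10 to ANXA2 was -3.52, -3.63 and -3.58 in control and -3.68, -3.85 and -3.91 in vitamin C wells. Every vitamin C ratio was below every control ratio. The mean difference was -0.24 (exact two-sided permutation test, p = 0.1), and 0.1 is the smallest p that 3 against 3 libraries allow.

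**Figure D4:**
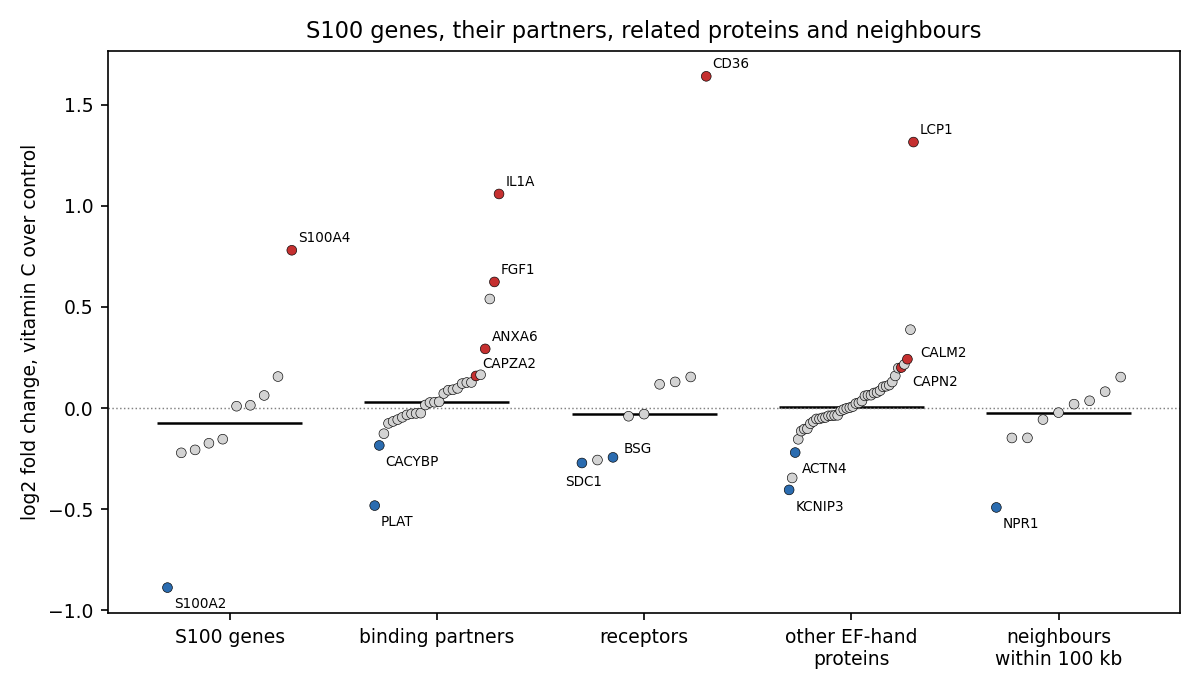
Vitamin C over control on the log2 scale (y axis) for the tested genes of 5 groups, sorted within each group, with the group median as a line. Called genes (adjusted p under 0.05) are named and drawn in red where higher and blue where lower, and the rest are gray. CD36 at 1.64 and LCP1 at 1.32 lie above S100A4 at 0.78.

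Among receptors reported to bind released S100 proteins, 9 of 11 were tested, and 1 rose and 2 fell (33.3% called, against 11.2% of all genes). CD36, a scavenger receptor, rose from 2.02, 2.35 and 1.92 CPM in control to 6.54, 6.53 and 6.64 CPM in vitamin C wells, 1.64 on the log2 scale (SE 0.140, edgeR adjusted p = 7.9e-06). SDC1, a heparan sulfate proteoglycan, fell by 0.27 on the log2 scale (SE 0.0572, edgeR adjusted p = 0.00813), and the glycoprotein BSG by 0.24 (SE 0.0719, edgeR adjusted p = 0.0450). AGER, which encodes RAGE, the best known S100 receptor, was near 0 with 48 counts over the 6 libraries and was not tested. TLR4 was not called, with 76.7 ± 4.67 CPM in control and 83.5 ± 0.490 CPM in vitamin C wells (SD, n = 3 wells each), and its groups did not overlap. Of the 9 tested receptors, 4 were higher and 3 lower with no overlap between groups, against 15.6% and 14.9% of all genes tested. An unadjusted p under 0.05 in the edgeR test was found for 7, against 25.7% of all genes tested. Without control replicate 2, 1 receptor was called, and calls over all genes fell from 1829 to 977.

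EF-hand proteins outside the S100 family were called at a rate near that of all genes (5 of 42 tested, 11.9%, against 11.2%), 3 higher and 2 lower. LCP1, an actin-bundling plastin, rose, from 12.8 ± 0.923 CPM in control to 32.1 ± 3.04 CPM in vitamin C wells (SD, n = 3 each), 1.32 on the log2 scale (SE 0.0878, edgeR adjusted p = 9.1e-07). The protease subunit CAPN2 rose with 0.20 (SE 0.0488) and the calmodulin gene CALM2 with 0.24 (SE 0.0661). KCNIP3, a calcium sensor of potassium channels, fell by 0.40 on the log2 scale (SE 0.0994), and the actin crosslinker ACTN4 by 0.22 (SE 0.0636). Leaving out control replicate 1, 2 or 3 gave 3, 2 and 2 called genes of this list. Over all genes it gave 1092, 977 and 964, against 1829 with every library.

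Few genes next to the S100 genes could be tested. Of 31 other genes within 100 kb, 9 were tested and 1 was called (11.1%, against 11.2% of all genes): NPR1, a natriuretic peptide receptor 46598 bases from S100A1, which was at 5.40 ± 0.384 CPM in control and 3.78 ± 0.526 CPM in vitamin C wells (SD, n = 3 each; log2 fold change -0.49, SE 0.141, edgeR adjusted p = 0.0402). DESeq2 did not call it (adjusted p = 0.066). NPR1 lost its call in all 6 fits that each left out a library (log2 fold change -0.58 to -0.39, edgeR adjusted p = 0.0532 to 0.128). Without vitamin C replicate 3 the neighbour called was THEM4 instead (log2 fold change -0.17, edgeR adjusted p = 0.0457). The tested genes nearest to S100A4 were S100A6 and S100A3, and those nearest to S100A2 were S100A4 and S100A16.

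The genes whose pattern over the 6 libraries was nearest to that of S100A4, by the root mean square difference of centred log2 CPM, were TRIM6 (0.0848), the fibrillar collagen COL3A1 (0.0850) and the non-coding gene AL133517.1 (0.0962). TRIM6 had a log2 fold change of 0.76 and COL3A1 of 0.76 (edgeR adjusted p = 0.0180 and 0.0193). AL133517.1 was low, at means of 0.327 CPM in control and 0.653 CPM in vitamin C wells, and was not called (edgeR adjusted p = 0.103). For S100A2 they were AL358933.1 (0.111), the ephrin ligand EFNB3 (0.134) and the transcription factor ZIC2 (0.143). AL358933.1 was low, at means of 0.446 CPM in control and 0.239 CPM in vitamin C wells, and was not called (edgeR adjusted p = 0.205). EFNB3 had a log2 fold change of -1.02 (edgeR adjusted p = 0.0015) and ZIC2 of -1.02 (edgeR adjusted p = 0.0588). These are descriptions over 6 libraries, which share the split into control and vitamin C.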

How the data were processed

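RNA was measured in 3 control and 3 vitamin C wells of A2058 cells. The authors depleted ribosomal RNA, mapped the paired-end reads (STAR) and summed them by gene (HTSeq), and the deposited values are raw counts. The study's methods name GENCODE v19. Beside STAR, the processing notes of the submitters list Trim Galore, CASAVA 1.4 and the build hg38. The 6 single-sample tables equal their columns of the series table. Symbols, coordinates and exon lengths came from GENCODE 29 (57055 of 60675 identifiers). From the counts, edgeR 4.0.16 in R 4.3.3 kept 16353 genes (filterByExpr), used TMM scaling and compared the groups by its quasi-likelihood test, with Benjamini-Hochberg adjustment over all genes tested. CPM use the TMM-scaled library sizes. Alternatives were RLE, upper quartile and library size scaling, 2 other filters, DESeq2 1.42.0, limma-voom (limma 3.58.1), the likelihood ratio test, the replicate block, a threshold of 0.01 and each library left out. The tests were checked on simulated counts, with 50 genes changed at each of 4 folds. The quasi-likelihood test found 22 at a fold of 1.25, 26 at 1.5, 35 at 2 and 50 at 4. It also called 12 of 16153 unchanged genes. Small changes can therefore be missed.

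The S100 genes and the other gene lists were chosen with earlier results of these data known. Named genes are all S100 genes of the list, other S100 genes with at least 10 counts, ANXA2, the melanocytic markers, up to 4 called genes of each list and direction with the smallest p, the nearest tested genes on either side of S100A4 and S100A2, and the 3 genes nearest to each in pattern. Further S100 genes, markers and list members given for completeness were named after their values were seen. DESeq and BaySeq, which the study also used, were not run.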

Additional observations from a re-analysis of the deposited data

How the results depend on the processing

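S100A4 stayed higher and called under all 16 alternatives (log2 fold change 0.61 to 0.88, adjusted p up to 0.00582). S100A2 stayed lower under all 16 (-1.11 to -0.68), and lost its call under 5, which were the threshold of 0.01 and the libraries named above. At a threshold of 0.01, 795 genes, 1 S100 gene, 3 partners, 2 receptors, 1 other EF-hand protein and 0 neighbours were called. With 1 library left out, the counts ran from 964 to 2095 for all genes, 1 to 2 for the S100 genes, 2 to 8 for partners, 1 to 3 for receptors, 2 to 7 for other EF-hand proteins and 0 to 1 for neighbours. Without control replicate 2 the S100 genes called were S100A4 and S100A11. No neighbour was called with DESeq2 (0) or with the replicate block (0). The sign turned for S100A1 (-0.163), S100A6 (-0.0255), S100A13 (-0.0945) and S100B (-0.0231) without vitamin C replicate 3, for S100A13 (-0.169) and S100B (-0.0418) without control replicate 1, and for S100B (-0.00119) with upper quartile scaling. With 1 library left out these 4 ran up to 0.305 (S100A1), 0.109 (S100A6), 0.112 (S100A13) and 0.0563 (S100B). None of these 4 genes was called in any setting run, and the cause was not tested. The S100A10 to ANXA2 difference ran from -0.305 to -0.188 with 1 library left out.

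The replicate numbers are not stated to mark a shared day or plate. Deviations of same-numbered libraries correlated at 0.12, -0.0206 and 0.0886, so the numbers were not taken as pairs, and not every library correlated best with its own number. With the replicate block 1913 genes were called, against 1829 without it, and the same 2 S100 genes (log2 fold change 0.756 for S100A4 and -0.927 for S100A2). In paired form the S100A10 to ANXA2 difference was -0.237 (exact sign-flip permutation test, p = 0.25, the smallest that 3 pairs allow). The share of higher calls among all calls was 54.5%, and 48.1% with upper quartile scaling. S100A2 and S100A3 rest on 17 to 103 counts a library, which limits what could be seen for them.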

Other observations

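The fused-type S100 genes, large skin barrier proteins that carry an S100 domain and lie between S100A11 and the other S100 genes on chromosome 1, were close to 0. None of the 7 had enough counts to test, and the most counts over the 6 libraries were 50, for FLG. Their summed level was 0.768, 0.856 and 0.743 CPM in control replicates 1, 2 and 3 and 0.783, 0.821 and 1.72 CPM in vitamin C replicates 1, 2 and 3, so vitamin C replicate 3 was again the highest. The sum over the 11 S100 genes that could not be tested was 0.764 CPM in that library and 0.122 to 0.298 CPM in the other 5. The sum over the 10 main S100 genes was 1223 CPM there and 1033 to 1107 CPM elsewhere. The part of this library's difference in these sums was not tested.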
